A study of Mus musculus with 20 samples.

Results

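The miR-30 family in the serum of Ames dwarf and normal mice is described here through 7 mature miRNAs: miR-30a-5p, miR-30a-3p, miR-30b-5p, miR-30c-5p, miR-30d-5p, miR-30e-5p and miR-30e-3p. They were chosen by name from the deposited count table, where they are 7 of 1915 mature names, and all 7 had reads in each of the 20 libraries. The libraries were made from the serum of female mice, 5 in each of 4 groups: old dwarf and old normal mice of 21 to 22 months, and young dwarf and young normal mice of 5 to 6 months. Ames dwarf mice lack growth hormone, prolactin and thyroid-stimulating hormone, and outlive their normal littermates. The strain label reads "Ames dwarf (heterogeneous genetic background)" for the normal mice as well, so the genotype was read from the label that names each mouse as normal or dwarf. Nothing in the labels ties the 5 samples of a group to separate mice, and the p-values below therefore measure the spread between these samples. The genotype labels could not be checked against the counts of serum miRNAs.

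A miRNA is cut from a hairpin in which either arm can become the mature strand, named 5p or 3p. Its bases 2 to 8, the seed, pair with target messenger RNAs and lower their translation or stability. The miR-30 family is widely expressed in kidney, heart, muscle and epithelia, and its shared 5p seed has been tied in cell studies to repression of the autophagy gene Becn1 and the matrix gene Ctgf. In serum, miRNAs are carried in vesicles and protein complexes and also come from lysed blood cells, so a serum level does not name a source tissue. More molecules of a miRNA and fewer molecules of the other small RNAs cannot be told apart in such libraries, and neither can the number of cells releasing a miRNA and the amount released per cell.

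The members with a sequence in the RefSeq table (GRCm38.p6), 5 of 7, fall into 2 seed groups. They are shown because the arms behaved differently in serum, and because 2 pairs of members differ by a single base. The capitals mark the seed.
miR-30a-5p: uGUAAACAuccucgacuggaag
miR-30e-5p: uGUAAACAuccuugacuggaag
miR-30c-5p: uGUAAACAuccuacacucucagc
miR-30a-3p: cUUUCAGUcggauguuugcagc
miR-30e-3p: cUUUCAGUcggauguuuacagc
Counted from 1 at the 5′ end, miR-30a-5p and miR-30e-5p differ by the substitution C13U (miR-30a-5p base first), and miR-30a-3p and miR-30e-3p by G18A (miR-30a-3p base first). Both differences lie outside the seed. A read that ends before the differing base, or carries an error there, could be counted under either name.

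The hairpins of miR-30a and miR-30e are printed next because both of their arms are members. The capitals mark the mature 5p and 3p strands.
Mir30a hairpin: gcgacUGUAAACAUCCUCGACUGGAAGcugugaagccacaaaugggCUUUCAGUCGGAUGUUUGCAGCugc
Mir30e hairpin: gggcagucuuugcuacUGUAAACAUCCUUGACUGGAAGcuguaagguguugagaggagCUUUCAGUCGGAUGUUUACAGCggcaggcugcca
In the authors' deposited report on all samples together, the consensus mature sequence of miR-30a-5p was 24 bases long, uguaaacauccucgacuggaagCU, and that of miR-30e-5p also had 24 bases, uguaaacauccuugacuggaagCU. In both, the capitals mark 2 bases of the hairpin beyond the 3′ end of the RefSeq mature sequence. The same report listed 0 loop reads for the miR-30a hairpin and 5 for the miR-30e hairpin.

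The family's genes lie in 3 pairs on the mouse genome (GRCm38, GENCODE M21). Mir30a (chr1:23272269-23272339, plus strand, between genes) lies 19361 bases from Mir30c-2 (chr1:23291701-23291784, plus strand, in an exon of the lincRNA Gm27028). Mir30e (chr4:120772606-120772697) and Mir30c-1 (chr4:120769534-120769622) lie 2983 bases apart on the minus strand, both in introns of Nfyc, which codes for a subunit of the transcription factor NF-Y. Mir30d (chr15:68341208-68341289, in an exon of the annotated transcripts Gm37296 and Gm20732) and Mir30b (chr15:68337415-68337510, in an exon of Gm26621) lie 3697 bases apart on the minus strand. Mir30c-1 and Mir30c-2 give the same miR-30c-5p, whose 2 precursor rows held identical counts (largest difference 0), so its reads cannot be assigned to chromosome 1 or 4.

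The family was an abundant part of the serum miRNA pool. Its 7 members took 4.57 ± 0.99% of miRNA counts in old dwarf and 3.39 ± 0.34% in old normal serum, and 5.26 ± 0.62% in young dwarf and 4.76 ± 0.62% in young normal serum (mean ± SD, n = 5 each, names with identical counts counted once). The lowest share was 3.02% in an old normal library and the highest 6.09% in a young dwarf library. Summed CPM (counts scaled to a common library size with TMM factors) gave a narrower relative spread in 3 of the 4 groups, with young normal serum the exception (CV 14.9% by CPM and 13.0% by share). The summed CPM was 33905 ± 3501 in old dwarf and 29614 ± 1458 in old normal serum, and 31927 ± 2938 in young dwarf and 32937 ± 4894 in young normal serum. By share of counts all 5 old normal libraries (3.02 to 3.84%) lay below all 5 young normal libraries (4.14 to 5.57%). By summed CPM the same 2 groups overlapped, so that order depends on the scaling.

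Most of the family's reads came from miR-30a-5p, miR-30e-5p and miR-30d-5p. Over all libraries mmu-miR-30a-5p had 607191 reads, mmu-miR-30e-5p 495276, mmu-miR-30d-5p 300603, mmu-miR-30c-5p 72970, mmu-miR-30b-5p 47260, mmu-miR-30a-3p 11349 and mmu-miR-30e-3p 1801 (the prefix mmu-, for mouse, is left off elsewhere). By mean CPM over the 20 libraries miR-30a-5p ranked 10 and miR-30e-5p 12 among the 360 miRNAs tested, and miR-30d-5p ranked 17. miR-30a-3p ranked 97 and miR-30e-3p 174. The order at the top of the family differed between the groups: miR-30a-5p ranked 9 and miR-30e-5p 13 in old dwarf serum, whereas miR-30a-5p ranked 15 and miR-30e-5p 11 in old normal serum.

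**Figure D1:**
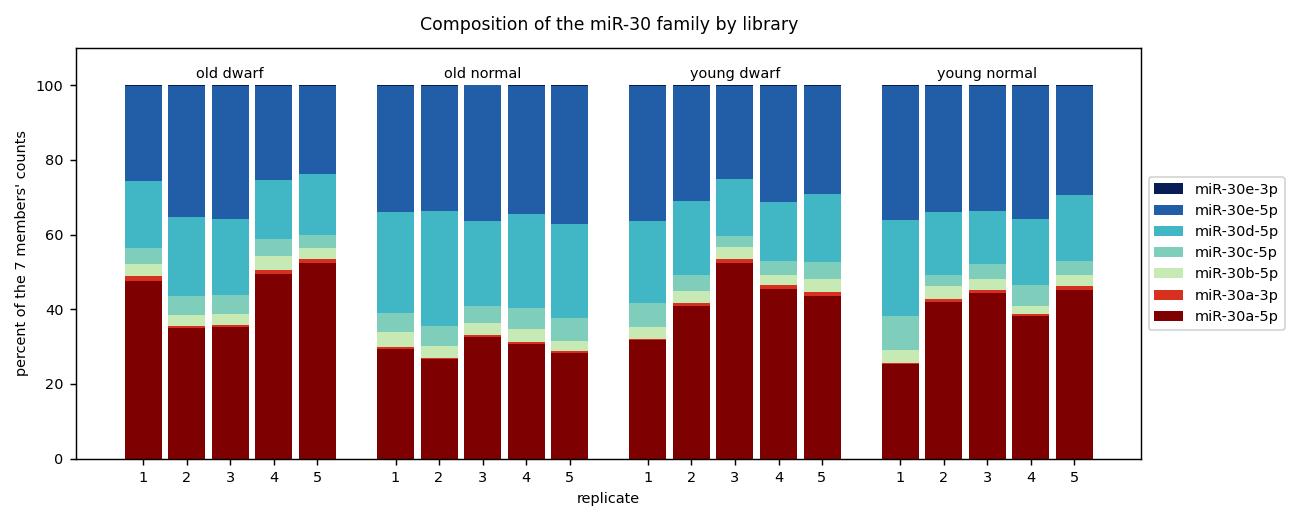
Share of each member in the counts of the 7 members (y axis, percent), 1 bar for each library, grouped by age and genotype. miR-30a-5p (dark red, bottom) made up 35.1 to 52.4% in the old dwarf libraries and 26.7 to 32.6% in the old normal libraries.

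Some members' shares of the family's counts separated old dwarf from old normal serum, and others overlapped. miR-30a-5p made up 44.0 ± 8.2% of the family's counts in old dwarf and 29.5 ± 2.3% in old normal serum, and 42.8 ± 7.5% in young dwarf and 39.0 ± 8.1% in young normal serum. miR-30d-5p made up 18.3 ± 2.4% in old dwarf and 26.2 ± 3.0% in old normal serum, and 18.2 ± 2.8% in young dwarf and 18.4 ± 4.3% in young normal serum. For both, the ranges of the old dwarf and old normal libraries did not overlap (35.1 to 52.4% against 26.7 to 32.6% for miR-30a-5p, and 15.7 to 21.3% against 22.9 to 31.0% for miR-30d-5p). The ranges of miR-30a-3p did not overlap either (0.53 to 1.20% against 0.33 to 0.52%). Those of miR-30b-5p, miR-30c-5p, miR-30e-5p and miR-30e-3p did overlap. Shares of one total move against each other, so a higher share of miR-30a-5p lowers that of miR-30d-5p by itself. These shares do not depend on how libraries were scaled, and no test was run on them.

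The first comparison set old dwarf against old normal serum, the genotype difference in mice of 21 to 22 months. miR-30a rose in old dwarf serum in both of its arms, while the other 5p members, which share its seed where a sequence was printed, did not pass the test. Of the 7 members, 2 were called higher and 0 lower (edgeR quasi-likelihood test, adjusted p under 0.05 over 360 miRNAs), against a background of 16.1% of all tested miRNAs called higher, 10.3% called lower and 26.4% called in either direction. The median log2 fold change was 0.09 over the 7 members and -0.06 over all 360 miRNAs. With libraries scaled by their totals the median over all 360 miRNAs was 0.23, and the log2 fold changes of miR-30a-5p and miR-30a-3p were 1.10 and 1.60.

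**Figure D2:**
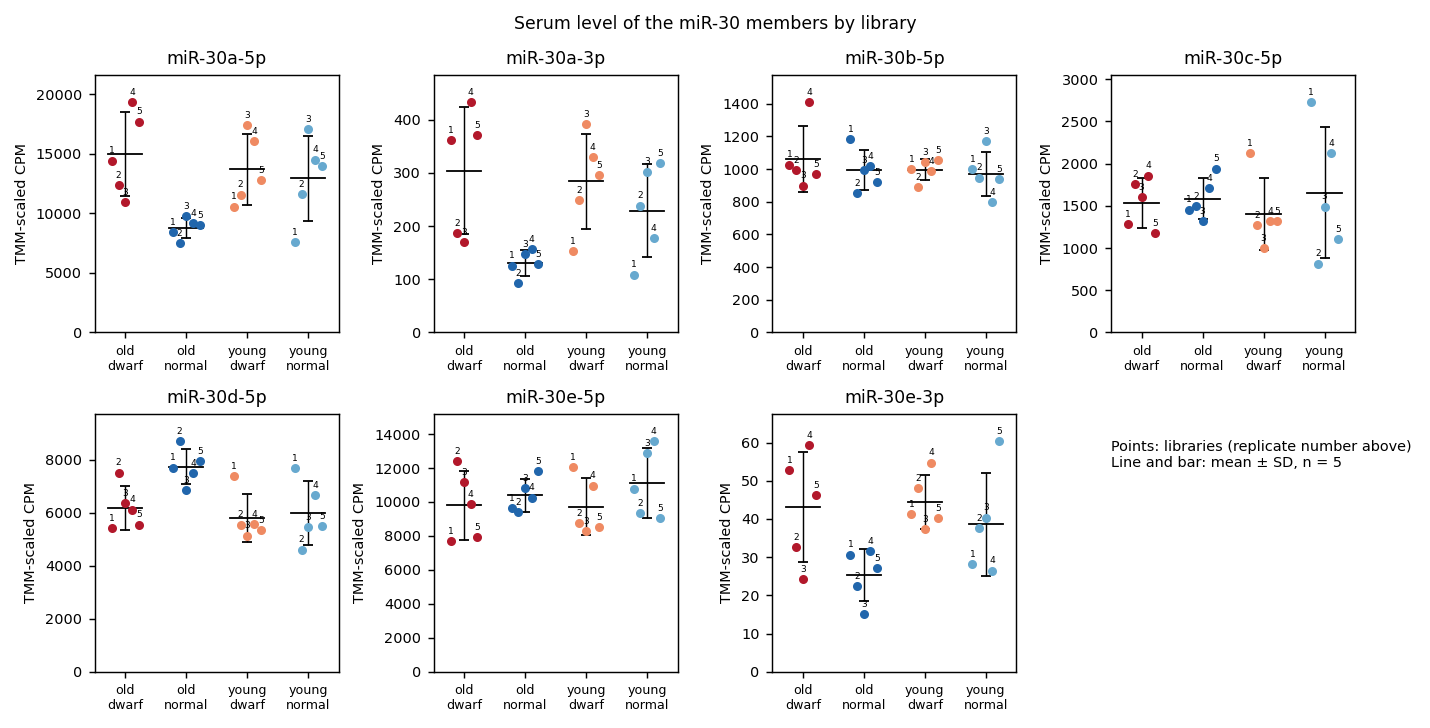
Level of each member (y axis, TMM-scaled CPM, starting at 0) in the 20 libraries. Points are libraries with their replicate number, lines are means and bars are SD (n = 5). For miR-30a-5p and miR-30a-3p all old dwarf libraries lie above all old normal libraries.

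miR-30a-5p stood at 14419, 12387, 10962, 19319 and 17680.3 CPM in old dwarf replicates 1 to 5, against 8395, 7478, 9743, 9169 and 8997 CPM in old normal replicates 1 to 5. All 5 old dwarf libraries lay above all 5 old normal libraries, and the old normal group was the tighter one. The means were 14953 ± 3510.3 CPM in old dwarf serum and 8756 ± 861 CPM in old normal serum (SD, n = 5 each). The log2 fold change was 0.77 ± 0.21 (SE, 95% interval 0.32 to 1.22, edgeR, Benjamini-Hochberg adjusted p 0.0135). Without old dwarf replicate 4, the highest library, it was 0.62 with an edgeR adjusted p of 0.0574, so the call depended on that library.

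miR-30a-3p, the opposite arm, stood at 362, 186, 169.6, 433 and 371 CPM in old dwarf replicates 1 to 5 and at 126, 93.1, 147, 156 and 128 CPM in old normal replicates 1 to 5. Old dwarf replicates 1, 4 and 5 were well above replicates 2 and 3, and all 5 still lay above the highest old normal library. The log2 fold change was 1.23 ± 0.32 (SE, 95% interval 0.55 to 1.90, edgeR adjusted p 0.0113). It kept an edgeR adjusted p of at most 0.0389 with each of the 20 libraries left out in turn. Groups without overlap in the higher direction were found for 2 of the 7 members, against 7.78% of the 360 miRNAs tested.

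The miR-30e hairpin did not show the same paired difference of its arms between old dwarf and old normal serum. miR-30e-5p, which differs from miR-30a-5p by 1 base, stood at 7711, 12407, 11154, 9855 and 7947 CPM in old dwarf replicates 1 to 5, against 9631, 9389, 10833, 10264 and 11801 CPM in old normal replicates 1 to 5. The groups overlapped on both sides, and the log2 fold change was -0.08 ± 0.18 (SE, 95% interval -0.45 to 0.29, edgeR adjusted p 0.732). Its 3p arm, miR-30e-3p, stood at 52.8, 32.6, 24.2, 59.4 and 46.2 CPM in old dwarf and at 30.7, 22.4, 15.1, 31.6 and 27.1 CPM in old normal replicates 1 to 5. The same old dwarf libraries as for miR-30a-3p, replicates 1, 4 and 5, were the high ones, and replicate 3 overlapped the old normal group. The log2 fold change of miR-30e-3p was 0.76 ± 0.29 (SE, 95% interval 0.15 to 1.36, edgeR adjusted p 0.0570), above the threshold. With DESeq2 its log2 fold change was 0.90 with an adjusted p of 0.0141, so 3 members were called there, among 136 of the 360 miRNAs. It was also called by edgeR without old dwarf replicate 2 (0.84, adjusted p 0.0368), without old dwarf replicate 3 (0.91, adjusted p 0.0242) and without young normal replicate 5 (0.71, adjusted p 0.0499).

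Because 2 miRNAs from 1 library share its scaling, their ratio is free of the normalization. The ratio of miR-30a-5p to miR-30e-5p counts was 1.87, 0.998, 0.983, 1.96 and 2.22 in old dwarf and 0.872, 0.797, 0.899, 0.893 and 0.762 in old normal replicates 1 to 5. All old dwarf ratios lay above all old normal ratios, with replicates 2 and 3 close to the old normal values. In the young mice the ratio was 0.876 to 2.10 in dwarf and 0.703 to 1.54 in normal serum, ranges that overlapped each other and the old dwarf range. The means were 1.61 ± 0.58 in old dwarf and 0.845 ± 0.062 in old normal serum, and 1.45 ± 0.44 in young dwarf and 1.18 ± 0.31 in young normal serum (SD, n = 5 each, no test).

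**Figure D3:**
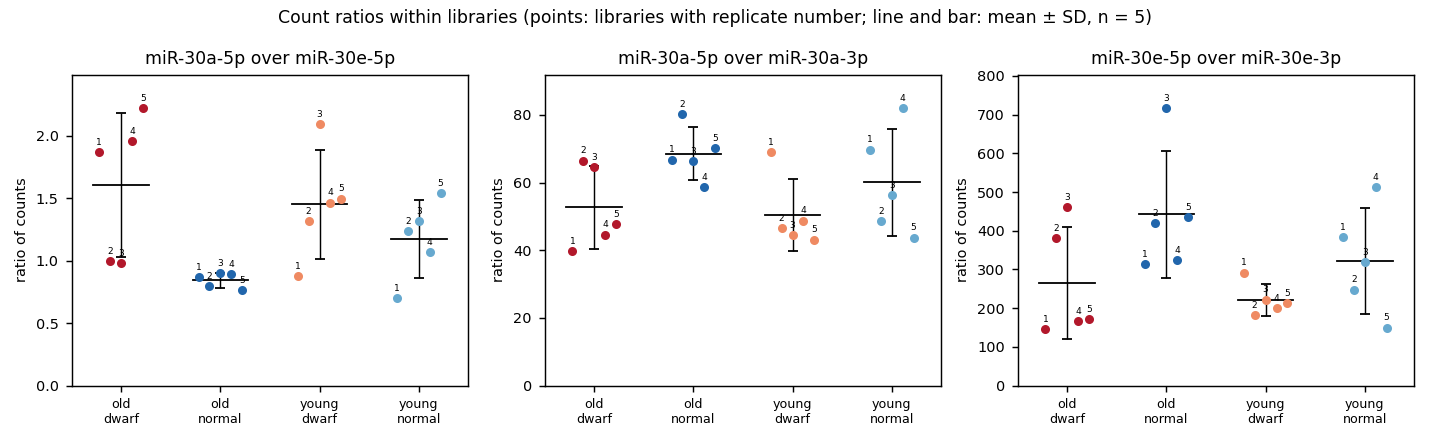
Ratios of raw counts within each library (y axes, starting at 0): miR-30a-5p over miR-30e-5p (left), the 5p over the 3p arm of miR-30a (middle) and of miR-30e (right). Points are libraries with their replicate number, lines are means and bars are SD (n = 5). The left ratio was at most 0.899 in old normal and at least 0.983 in old dwarf libraries.

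In both hairpins the 5p arm was the main product in serum. Its lead over the 3p arm was smaller in some old dwarf libraries than in any old normal library. The 5p to 3p ratio of miR-30a was 39.8, 66.5, 64.6, 44.6 and 47.6 in old dwarf and 66.8, 80.3, 66.4, 58.6 and 70.3 in old normal replicates 1 to 5. That of miR-30e was 146, 380.4, 460.4, 166 and 172 in old dwarf and 314, 419, 717, 325 and 435 in old normal replicates 1 to 5. In both ratios old dwarf replicates 2 and 3 lay within the old normal range and replicates 1, 4 and 5 below it. In the young mice the miR-30a ratio ran from 43.2 to 69.0 in dwarf and from 43.8 to 82.0 in normal serum, and the miR-30e ratio from 182 to 292 in dwarf and from 149.9 to 513 in normal serum. The miR-30e ratio rests on 25 to 98 miR-30e-3p reads per library in the old mice, so its counting error is larger than that of miR-30a.

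The remaining members did not pass the test between old dwarf and old normal serum. miR-30d-5p stood at 5429, 7518, 6352, 6116 and 5549.8 CPM in old dwarf and at 7704, 8692, 6849, 7505 and 7957 CPM in old normal replicates 1 to 5. Old dwarf replicate 2 reached into the old normal range and the other 4 lay below it, with a log2 fold change of -0.32 ± 0.16 (SE, 95% interval -0.66 to 0.02, edgeR adjusted p 0.131). miR-30b-5p, from the same chromosome 15 pair, was at 1060.1 ± 201 CPM in old dwarf serum and 994 ± 124 CPM in old normal serum, a log2 fold change of 0.09 ± 0.16 (SE, edgeR adjusted p 0.670). miR-30c-5p was at 1536 ± 297 CPM in old dwarf serum and 1584 ± 244 CPM in old normal serum, a log2 fold change of -0.04 ± 0.27 (SE, edgeR adjusted p 0.907). The 95% intervals of these 2, -0.24 to 0.42 for miR-30b-5p and -0.62 to 0.53 for miR-30c-5p, leave room for changes of moderate size in either direction.

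**Figure D4:**
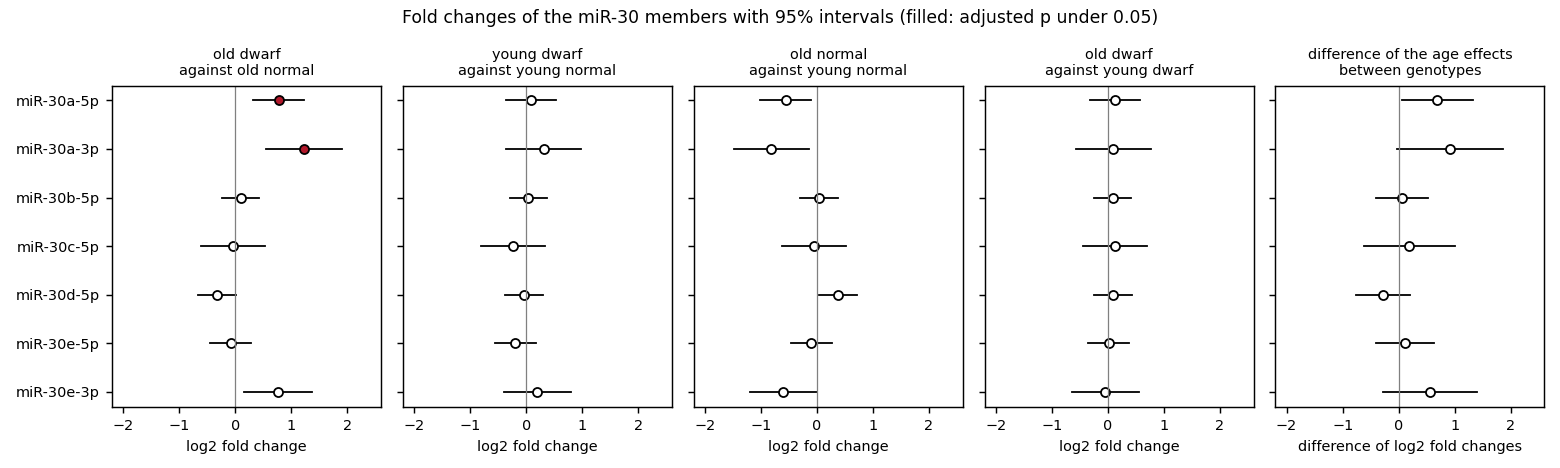
Log2 fold changes of the 7 members with 95% intervals (x axis) in the 5 comparisons. Filled points had an adjusted p under 0.05, which held for miR-30a-5p and miR-30a-3p between old dwarf and old normal serum.

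The red-cell miRNA miR-451a and the haemolysis index built from it lay in the same direction as miR-30a in these mice, while the listed red-cell miRNAs did not all do so. miR-451a was at 30615 ± 6767 CPM in old dwarf serum and 18409 ± 5950 CPM in old normal serum (log2 fold change 0.73, edgeR adjusted p 0.0550). The haemolysis index, log2 of miR-451a over the steadier miR-23a-3p, was 4.90 to 6.09 in old dwarf and 3.13 to 4.83 in old normal libraries, without overlap. With the index as a covariate in the edgeR model, 0 of the 7 members and 0 of all 360 miRNAs passed the threshold, and 0 members had an unadjusted p under 0.05. In that fit miR-30a-5p had a log2 fold change of 0.27 (adjusted p 0.514) and miR-30a-3p of 0.55 (adjusted p 0.442). Since the index did not overlap between the 2 groups, a genotype difference and a difference that follows the index cannot be told apart in these old mice.

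The listed red-cell miRNAs were split in direction between old dwarf and old normal serum, 4 with a log2 fold change above 0 and 3 below 0, with 0 of 7 called by edgeR (adjusted p 0.0550 to 0.417). Beside miR-451a, those above 0 were miR-144-3p at 0.57, miR-144-5p at 0.63 and miR-16-5p at 0.48. Those below 0 were miR-486a-5p at -0.32, miR-486a-3p at -0.50 and miR-92a-3p at -1.04. The summed level of a list follows its most abundant names. All 7 listed red-cell miRNAs were detected, and their summed level was 320233 to 622235 CPM in old dwarf libraries (median 370174) and 437527 to 628897 CPM in old normal libraries (median 508473). The myeloid and platelet list (5 of 5 detected) summed to 19963 to 57487 CPM in old dwarf libraries and 53400.4 to 74974 CPM in old normal libraries, and the lymphocyte list (7 of 7) to 2656 to 3683 CPM in old dwarf libraries and 3617 to 11674 CPM in old normal libraries. The myeloid and platelet sums of old dwarf replicates 1 to 5 were 19963, 57487, 48084, 21392 and 22397 CPM, so replicates 2 and 3 were the high ones. Those replicates also had the highest old dwarf sums of the red-cell list (534894 and 622235 CPM) and of the lymphocyte list (3683 and 3658 CPM). Their sums of the muscle list were the lowest of the group (2499 and 2016 CPM). The liver and endothelial lists did not set them apart. The liver list (7 of 7) summed to 12341 to 29512 CPM in old dwarf libraries and 15351 to 27793 CPM in old normal libraries. Of that list, miR-122-5p stood at 12.9, 3.94, 9.58, 347 and 117 CPM in old dwarf replicates 1 to 5. In old normal replicates 1 to 5 it stood at 13.6, 6.27, 37.0, 10.4 and 4.81 CPM (log2 fold change 2.74, edgeR adjusted p 0.0950). The other liver names are not given one by one here. The muscle list, of which miR-206-3p had no read in either of these groups, summed to 2016 to 5749 CPM in old dwarf libraries and 322 to 4075 CPM in old normal libraries. The endothelial pair (2 of 2) summed to 1696 to 3130.5 CPM in old dwarf libraries and 1561 to 2794 CPM in old normal libraries. Apart from the index fit above, the part of these sources in the miR-30 values was not tested.

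**Figure D5:**
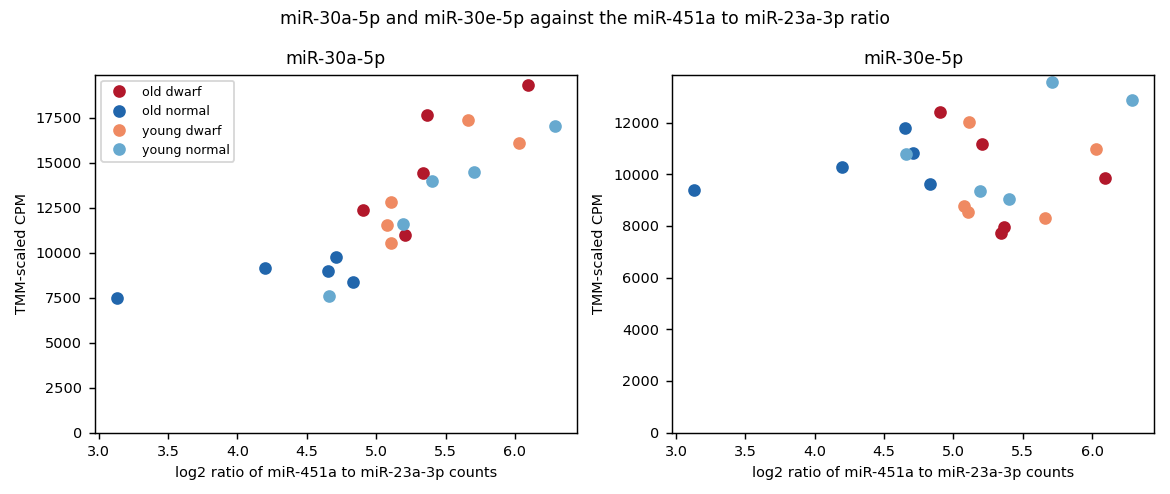
Level of miR-30a-5p (left) and miR-30e-5p (right) in TMM-scaled CPM (y axes, starting at 0) against the haemolysis index (x axis, log2 of miR-451a over miR-23a-3p) in the 20 libraries, coloured by group. miR-30a-5p lies higher in libraries with a higher index (Pearson r 0.85), and miR-30e-5p shows no such order (Pearson r 0.10).

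Across the 20 libraries the 2 near-identical members stood apart in how they followed the index. Pearson's r between log2 CPM and the index was 0.85 for miR-30a-5p (Spearman's rho 0.90) and 0.10 for miR-30e-5p (rho 0.02). With group means removed r was 0.77 for miR-30a-5p and 0.21 for miR-30e-5p, and without the 2 libraries farthest from the median index it was 0.86 and -0.14. miR-30a-3p had an r of 0.77, miR-30e-3p of 0.58 and miR-30d-5p of -0.68. These are descriptions over 20 libraries, in each of which the members and the 2 miRNAs of the index were counted together.

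The second comparison set old normal against young normal serum, the age difference within normal mice. It uses the same old normal libraries as the first, so the values of both are given side by side and are not independent. No member passed the test (0 of 7 called by edgeR), against a background of 15.6% of the 360 miRNAs called in either direction. An unadjusted edgeR p under 0.05 was found for 4 members and for 138 of the 360 miRNAs. DESeq2 called 3 members, miR-30a-5p, miR-30a-3p and miR-30d-5p, and 117 of the 360 miRNAs.

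miR-30a-5p stood at 8395, 7478, 9743, 9169 and 8997 CPM in old normal and at 7579, 11590.1, 17028, 14502 and 13965 CPM in young normal replicates 1 to 5. Young normal replicate 1 lay within the old normal range and the other 4 young libraries above it. The log2 fold change was -0.56 ± 0.21 (SE, 95% interval -1.01 to -0.12, edgeR adjusted p 0.0696). miR-30a-3p stood at 126, 93.1, 147, 156 and 128 CPM in old normal and at 109, 239, 303, 177 and 319 CPM in young normal replicates 1 to 5, with a log2 fold change of -0.82 ± 0.32 (SE, edgeR adjusted p 0.0751). Replicate 1 was again the low library of the young normal group. Without it the log2 fold change was -0.70 for miR-30a-5p (edgeR adjusted p 0.0168) and -0.99 for miR-30a-3p (edgeR adjusted p 0.0246), and 3 members were called.

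The third member called without young normal replicate 1 was miR-30d-5p, which lay the other way. It was at 7741 ± 671 CPM in old normal and 5987 ± 1202 CPM in young normal serum, a log2 fold change of 0.37 ± 0.16 (SE, edgeR adjusted p 0.105) that became 0.48 without young normal replicate 1 (edgeR adjusted p 0.0371). With libraries scaled by their totals instead, the median log2 fold change of all 360 miRNAs was -0.42, and the log2 fold change of miR-30d-5p was -0.05 (edgeR adjusted p 0.832), so its direction depends on the scaling. miR-30e-3p was at 25.4 ± 6.8 CPM in old normal and 38.6 ± 13.5 CPM in young normal serum (log2 fold change -0.60 ± 0.29, SE, edgeR adjusted p 0.130). miR-30b-5p, miR-30c-5p and miR-30e-5p had log2 fold changes of 0.03, -0.06 and -0.10 (edgeR adjusted p 0.889, 0.889 and 0.688). With library totals the log2 fold change of miR-30e-5p was -0.51 (edgeR adjusted p 0.00929). That scaling called 4 members, miR-30a-5p, miR-30a-3p, miR-30e-5p and miR-30e-3p, lower in old normal serum, and 106 of the 360 miRNAs in either direction. With upper-quartile factors the log2 fold change of miR-30e-5p was 0.057, so its call and direction depend on the scaling. The haemolysis index was 3.13 to 4.83 in old normal and 4.66 to 6.29 in young normal libraries, and miR-451a was lower in old normal serum (log2 fold change -0.99, edgeR adjusted p 0.0198). With the index as a covariate no member and 1 of the 360 miRNAs were called, and 0 members had an unadjusted p under 0.05.

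Young dwarf and young normal serum were compared next, the genotype difference at 5 to 6 months. None of the 7 members was called (0 by edgeR and 0 by DESeq2, and 0 with an unadjusted p under 0.05), as for all 360 miRNAs in the edgeR test (0% called). DESeq2 called 6 of the 360 miRNAs, and 28 had an unadjusted edgeR p under 0.05. miR-30a-5p stood at 10546, 11553, 17405, 16082 and 12795 CPM in young dwarf and at 7579, 11590.1, 17028, 14502 and 13965 CPM in young normal replicates 1 to 5. The ranges overlapped almost fully, and the log2 fold change was 0.08 ± 0.21 (SE, 95% interval -0.37 to 0.53, edgeR adjusted p 0.940). miR-30a-3p was at 284 ± 90.0 CPM in young dwarf serum and 229 ± 87.8 CPM in young normal serum (log2 fold change 0.31 ± 0.32, SE, 95% interval -0.36 to 0.97, edgeR adjusted p 0.768). The other 5 members had log2 fold changes between -0.23 (miR-30c-5p) and 0.20 (miR-30e-3p), with edgeR adjusted p-values of 0.733 or more. The interval for miR-30a-3p reaches 0.97, so a difference as large as that cannot be set aside at this number of libraries.

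Replicate 1 of both young groups had a composition of its own. In young dwarf replicate 1 miR-30a-5p was the lowest of its group at 10546 CPM, while miR-30d-5p, at 7372 CPM, and miR-30c-5p, at 2129 CPM, were the highest. In young normal replicate 1 the same 3 members stood at 7579, 7693 and 2729 CPM, again the lowest of its group for miR-30a-5p and the highest for miR-30d-5p and miR-30c-5p. Both libraries thus had a composition nearer to that of the old normal group, with miR-30a-5p at 31.7% and 25.3% of the family's counts. Total counts do not set them apart, at 2249714 in young dwarf replicate 1 and 2070575 in young normal replicate 1, within the span of 1343137 to 4710263 over all libraries. Both had the highest sums of the myeloid and platelet list and of the lymphocyte list in their group. The myeloid and platelet sum was 45361 CPM in young dwarf replicate 1 and 50494 CPM in young normal replicate 1. In young normal serum replicate 4 followed at 45494 CPM. The lymphocyte sums of the same 2 libraries were 3936 CPM (young dwarf, where replicate 2 followed at 3916 CPM) and 4144 CPM (young normal). Their muscle sums were the lowest of their groups, at 1808 and 1073 CPM. No other list put replicate 1 at the same end of both groups. A link of these sums to the miR-30 values was not tested.

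In dwarf mice the family did not differ detectably with age. In old dwarf against young dwarf serum 0 of 7 members were called by edgeR and 0 by DESeq2, and 0 had an unadjusted p under 0.05, against a background of 0.556% of the 360 miRNAs called. An unadjusted edgeR p under 0.05 was found for 14 of the 360 miRNAs. miR-30a-5p was at 14953 ± 3510.3 CPM in old dwarf serum and 13676 ± 2949 CPM in young dwarf serum (log2 fold change 0.13 ± 0.21, SE, 95% interval -0.32 to 0.57, edgeR adjusted p 0.997). miR-30a-3p was at 305 ± 119 CPM in old dwarf serum and 284 ± 90.0 CPM in young dwarf serum (log2 fold change 0.10 ± 0.32, SE, 95% interval -0.56 to 0.76, edgeR adjusted p 0.997). miR-30e-3p, at 43.0 ± 14.4 CPM in old dwarf serum and 44.3 ± 7.1 CPM in young dwarf serum, had a log2 fold change of -0.04 ± 0.29 (SE, edgeR adjusted p 0.997). With library totals as the scaling the fold changes of all 7 members were below 0 in this comparison, where the median of all 360 miRNAs was then -0.38.

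Whether the age effect differed between the genotypes was tested directly, as old minus young in dwarf mice minus old minus young in normal mice. None of the 7 members passed (0 called by edgeR and by DESeq2). The background was 0.556% of the 360 miRNAs with edgeR and 20 of the 360 with DESeq2. An unadjusted edgeR p under 0.05 was found for 57 of the 360 miRNAs and, among the members, only for miR-30a-5p. Its difference of log2 fold changes was 0.69 ± 0.30 (SE, 95% interval 0.06 to 1.32, edgeR adjusted p 0.266), and that of miR-30a-3p was 0.92 ± 0.45 (SE, 95% interval -0.03 to 1.86, edgeR adjusted p 0.314). miR-30e-3p had a difference of 0.56 ± 0.41 (SE, edgeR adjusted p 0.514) and miR-30d-5p of -0.28 ± 0.23 (SE, edgeR adjusted p 0.546). The higher miR-30a of old dwarf over old normal serum is therefore not shown to differ from that of the young mice, nor the age effect between genotypes. In the order of group means miR-30a-5p was highest in old dwarf (14953 CPM), then young dwarf (13676 CPM) and young normal (12933 CPM), and lowest in old normal serum (8756 CPM), and of these neighbours the first 3 lay within 1 SD of each other.

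The minor strands of the family, and its relatives, added little in reads. Of the 7 further names on the list, miR-30d-3p had 660 reads over the 20 libraries, miR-30c-2-3p 131, miR-30c-1-3p 30, miR-30b-3p 10 and miR-384-5p 3, while miR-30f and miR-384-3p had 0. miR-30c-2-3p comes from the hairpin next to Mir30a on chromosome 1, and unlike miR-30c-5p it differs in sequence from its counterpart of chromosome 4, with the seed in capitals.
miR-30c-2-3p: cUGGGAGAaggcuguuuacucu
miR-30c-1-3p: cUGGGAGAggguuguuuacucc
It stood at 6.999, 2.51, 1.69, 5.46 and 4.97 CPM in old dwarf and at 1.51, 1.79, 0.79, 0 and 2.06 CPM in old normal replicates 1 to 5, on 3 to 13 reads in old dwarf and 0 to 6 in old normal libraries. The log2 fold change of miR-30c-2-3p was 1.75 ± 0.58 (SE, edgeR adjusted p 0.0343), with old dwarf replicate 3 inside the old normal range. The call of miR-30c-2-3p was lost without old dwarf replicate 1, 4 or 5 and without old normal replicate 1, 3 or 4, each left out alone (adjusted p up to 0.0920). It was also lost with no filter on low counts (edgeR adjusted p 0.0721), with only the groups compared (0.0569) and with the haemolysis index as a covariate (0.291). miR-30d-3p was at 15.3 ± 5.2 CPM in old dwarf serum and 12.2 ± 2.5 CPM in old normal serum (log2 fold change 0.31 ± 0.28, SE, edgeR adjusted p 0.415). miR-30c-1-3p was at 0 to 0.72 CPM in old dwarf libraries and 0 to 3.81 CPM in old normal libraries, and miR-30b-3p at 0 to 1.36 CPM in old dwarf libraries and 0 to 0.50 CPM in old normal libraries, too few reads for a test.

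Within the family the members fell into 2 patterns across the 20 libraries. The arms of miR-30a went together, with Pearson's r of 0.93 between the log2 CPM of miR-30a-5p and miR-30a-3p (Spearman's rho 0.94, r 0.87 with group means removed). The arms of miR-30e did not, with r of -0.40 between miR-30e-5p and miR-30e-3p (rho -0.39, r -0.41 with group means removed), while miR-30a-3p and miR-30e-3p had r of 0.78 (rho 0.77, r 0.62 with group means removed). On the other side miR-30c-5p went with miR-30d-5p (r 0.73, rho 0.72, r 0.88 with group means removed) and with miR-30e-5p (r 0.63). miR-30d-5p ran against miR-30a-3p (r -0.85, rho -0.79, r -0.81 with group means removed) and against miR-30a-5p (r -0.73). miR-30b-5p followed neither, with r between -0.13 and 0.39 to the other 6 members. miR-30b-5p and miR-30d-5p, although neighbours on chromosome 15, had r of -0.13, so that pair of genes did not share a serum pattern. These values describe 20 libraries with a common scaling.

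The members were also steadier than most serum miRNAs. The SD of log2 CPM within groups was 0.19 for miR-30b-5p, 0.21 for miR-30d-5p, 0.24 for miR-30e-5p and 0.33 for miR-30a-5p, against a median of 0.60 over the 360 miRNAs. It was 0.42 for miR-30e-3p, 0.44 for miR-30c-5p and 0.54 for miR-30a-3p, all 7 under that median. More abundant miRNAs have less counting error, which was not separated from other spread here.

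Among 351 tested miRNAs outside the family, those most like the mean log2 CPM of the 5 members named 5p were miR-421-3p (r 0.75), miR-186-5p (r 0.73), let-7j (r 0.72), miR-17-5p (r 0.71) and miR-106b-3p (r 0.69), over 20 libraries. With group means removed these were 0.77, 0.81, 0.75, 0.77 and 0.76. Taken one by one, miR-30a-3p was most like miR-101a-3p (r 0.96, 0.94 with group means removed) and miR-30a-5p most like miR-101c (r 0.88, 0.80 with group means removed). The counts of miR-101a-3p and miR-101c differed by at most 4 reads in any library, so the 2 names stand for nearly the same counts. miR-30d-5p was most like miR-350-5p (r 0.93), miR-30e-5p like miR-106b-3p (r 0.87), miR-30e-3p like miR-411-5p (r 0.87), miR-30c-5p like miR-181c-5p (r 0.80) and miR-30b-5p like the liver miRNA miR-122-5p (r 0.67, 0.52 without the 2 libraries farthest from the median). Each nearest miRNA was the best of 351, so a high r is partly the result of that choice.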

How the data were processed

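Small RNA of 20 serum samples was extracted with the miRNeasy kit and made into libraries with the TruSeq Small RNA kit, per the labels. Bowtie 0.12.8, bedtools, edgeR and the builds GRCm38 and mm10 are named in the submitters' processing notes, with no role given. The deposited values are whole-number read counts per pair of mature miRNA and precursor, per the file headers, in the layout of miRDeep2. A read is listed again in each precursor row it matches, so the row with the highest total was used for each name (2241 rows, 1915 names, 1191 with a read). The authors' deposited report on all samples together gave pooled arm reads and consensus sequences.

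Total counts ran from 1343137 to 4710263 per library. The quasi-likelihood test was that of edgeR 4.0.16, run on the counts (R 4.3.3, limma 3.58.1), 1 coefficient for each of the 4 groups, all 20 libraries sharing the spread (16 residual degrees of freedom), TMM factors and the default filter (minimum count 10). This left 360 miRNAs with at least 99.9% of reads per library and a common biological coefficient of variation of 47.5%. Benjamini-Hochberg adjustment ran over the 360 miRNAs, with a threshold of 0.05. The SE is the size of the log2 fold change over the square root of F. Amplified reads are not independent molecules, so counting precision is an upper limit. The tests were checked on simulated data.

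Alternatives were DESeq2 1.42.0, its size factors, library totals, upper-quartile factors, no filter, summed precursor rows, identical names counted once (19 names with the same count in every library dropped), only the groups compared, the haemolysis index (log2 of miR-451a over miR-23a-3p, with 1 added to both counts) as a covariate, a replicate block and each library left out. Log2 CPM for correlations used a prior count of 2. miRNAs named are the 7 members, 7 further names of the family with values for those of at least 10 reads, the 5 miRNAs most like the mean of the 5p members, the nearest of each member, and miR-451a, miR-23a-3p and miR-122-5p. The members, the lists and these rules were chosen with earlier results of these data known. Sequences are from RefSeq (GRCm38.p6), with 5 of 7 members matched. No sample column was left unused (0).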

Additional observations from a re-analysis of the deposited data

Results flagged for a closer look

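Among 104 groups of 5 values, 7 had a highest or lowest library whose gap to its nearest neighbour exceeded 0.71 of the group's range (Dixon's 95% value). Many of these values are built from the same counts, so the number flagged cannot be set against a rate for independent values. The highest library stood apart in each case. Old dwarf replicate 4 had miR-30b-5p at 1409.7 CPM. Young dwarf replicate 1 had miR-30c-5p at 2129 CPM, miR-30d-5p at 7372 CPM and a miR-30a 5p to 3p ratio of 69.0. Old normal replicate 3 had a miR-30a-3p to miR-30e-3p ratio of 9.71, on 38 miR-30e-3p reads. The liver miRNA miR-122-5p was at 37.0 CPM in old normal replicate 3 and at 69.6 CPM in young normal replicate 3.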

How the results depend on the processing

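Between old dwarf and old normal serum 2 members were called, 3 with DESeq2, with its size factors, with library totals or with identical names counted once, and 0 with the haemolysis index as a covariate. Of the 360 miRNAs, 95 were called, 136 with DESeq2, 118 with its size factors, 119 with library totals and 0 with the index. With identical names counted once it was 103 of 353. With 1 library left out the member count was 1 to 3. Without the index fit, the log2 fold change of miR-30a-5p ran from 0.62 to 1.10 (adjusted p 0.000643 to 0.0574) and that of miR-30a-3p from 1.02 to 1.60 (adjusted p 0.000804 to 0.0389). Between old normal and young normal serum 0 members were called, 3 with DESeq2, 4 with library totals, 1 with upper-quartile factors and 0 to 3 with 1 library left out (3 without young normal replicate 1). There 56 of the 360 miRNAs were called, 117 with DESeq2, 106 with library totals and 69 with upper-quartile factors. Calls over all miRNAs with 1 library left out are not given here for either comparison. The other 3 comparisons had 0 members called under every alternative run. The replicate block changed no member count. Of the 360 miRNAs it called 92 for old dwarf against old normal (95 without the block), 38 for old normal against young normal (56 without it) and 0 in the other 3 comparisons (0, 2 and 2 without it). The replicate numbers were not taken to pair the libraries, since the correlation of deviations was over 0.1 in 13 of 30 same-numbered pairs (-0.68 to 0.81) and for no combination of groups in every pair. Between young dwarf and young normal libraries it was over 0.1 in 4 of 5 pairs (-0.22 to 0.81).

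Log2 fold changes that changed sign were uncalled before and after (adjusted p over 0.05), and the cause was not tested. For old dwarf against old normal, miR-30c-5p became 0.076 with DESeq2, 0.076 with its size factors, 0.21 with library totals, 0.0012 with no filter, 0.017 with identical names once and 0.10 with the index, and miR-30e-5p became 0.031 with DESeq2, 0.031 with its size factors and 0.16 with library totals. miR-30b-5p became -0.11 with the index. For young dwarf against young normal, library totals gave 0.037 for miR-30c-5p, 0.18 for miR-30d-5p and 0.040 for miR-30e-5p. For old normal against young normal, miR-30b-5p became -0.0305 with DESeq2, -0.0309 with its size factors, -0.43 with library totals and -0.084 with no filter. There miR-30d-5p became -0.053 with library totals. Upper-quartile factors gave 0.066 for miR-30c-5p and 0.057 for miR-30e-5p, the index 0.0051 for miR-30e-5p and the replicate block 0.021 for miR-30c-5p. For old dwarf against young dwarf, library totals gave -0.24 for miR-30a-5p, -0.25 for miR-30a-3p, -0.28 for miR-30b-5p, -0.23 for miR-30c-5p, -0.30 for miR-30d-5p and -0.39 for miR-30e-5p. There miR-30e-3p became 0.064 with upper-quartile factors and 0.0099 with identical names once, and miR-30e-5p -0.060 with no filter and -0.00103 with summed precursor rows. In the difference of the age effects miR-30b-5p became -0.16 with the index.

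With 1 library left out, signs changed within these ranges: for old dwarf against old normal, miR-30b-5p -0.054 to 0.16 and miR-30c-5p -0.14 to 0.039. For young dwarf against young normal they were -0.061 to 0.20 for miR-30a-5p, -0.026 to 0.11 for miR-30b-5p, -0.45 to 0.023 for miR-30c-5p and -0.16 to 0.060 for miR-30d-5p. For old normal against young normal they were -0.035 to 0.11 for miR-30b-5p and -0.25 to 0.19 for miR-30c-5p. For old dwarf against young dwarf they were -0.082 to 0.25 for miR-30a-3p, -0.036 to 0.14 for miR-30b-5p, -0.085 to 0.10 for miR-30e-5p and -0.20 to 0.10 for miR-30e-3p. In the difference of the age effects they were -0.069 to 0.13 for miR-30b-5p and -0.067 to 0.39 for miR-30c-5p. Of 1043 member values under an alternative, 62 changed sign.

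Limits are the 5 libraries per group, samples not stated to be separate mice, the low reads of miR-30e-3p, and an index that does not overlap between old dwarf and old normal serum. miR-30a-5p and miR-30e-5p differ by 1 base, and how the authors' counting split such reads is not given in the sources used here.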
